A study of Homo sapiens with 4 samples.

Results

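The regions described here overlap the genes of 9 abundant messenger RNAs of the translation machinery. They come from a map of Argonaute sites in HEK293, a human embryonic kidney cell line. The genes code for the elongation factors EEF1A1 and EEF2, the large-subunit ribosomal proteins RPL3, RPL4, RPL5 and RPLP0, and the small-subunit proteins RPS2, RPS3 and RPS6. The members were chosen by position: every region of the deposited list that overlapped the hg19 span of 1 of these genes on the gene's own strand. This gave 152 regions of 211947 (0.0717%), and all 9 genes had at least 9. No score was used in the choice, and no filter on low values was applied.

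The list came from PAR-CLIP, in which cells take up a photoreactive uridine analogue, ultraviolet light crosslinks RNA to a bound protein, and the RNA recovered with it is sequenced. The series held 4 libraries. In 3 of them cells stably expressing His/FLAG/HA-tagged protein were given 200 µM 4-thiouridine and AGO1 was recovered through its FLAG tag. In the other 1, cells were given 100 µM and AGO2 was recovered with the antibody 11A9 against the protein itself. Labelling lasted 16 h and crosslinking was at 365 nm in all 4. The series text speaks of tagged lines for both proteins, while the labels of the AGO2 library name no tag. The list carries a library set name, AGO_good, and which of the 4 libraries it holds is not stated in the file header or the labels, so it may hold only some of them. It has 1 value per region and no value per library, so AGO1 and AGO2 cannot be told apart, the depth of the libraries is unknown, and values carry no replicate error.

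Argonaute proteins carry microRNAs and are guided by them to partly complementary sites, most often in the 3′ untranslated parts of mRNAs, where they recruit factors that block translation and shorten the poly(A) tail. Ribosomal protein and elongation factor mRNAs are among the most abundant in dividing cells. They are known as TOP mRNAs, because they begin with a C followed by an unbroken run of pyrimidines, through which the growth-signalling kinase mTOR and the protein LARP1 control their translation.

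The starts of these mRNAs are shown because 7 of the 9 spans had a region within 100 nt of their 5′ end. These are not the same 7 genes as those printed. EEF1A1 and RPL4 had no such region and are shown, while RPL5 and RPS2 had such a region and are not. The genes belong to the class of mRNAs known for the pyrimidine run. Finding the run in them is therefore not a result independent of their choice. Each line gives 30 bases of the RefSeq promoter table, 15 before and 15 from the annotated start, 5′ to 3′ on the gene's strand. The pyrimidine run that begins at the start is in capitals.
EEF1A1: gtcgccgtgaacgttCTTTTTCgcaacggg
EEF2: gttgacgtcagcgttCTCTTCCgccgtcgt
RPL3: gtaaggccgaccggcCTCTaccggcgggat
RPL4: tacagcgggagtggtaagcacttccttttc
RPLP0: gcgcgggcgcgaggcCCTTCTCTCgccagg
RPS3: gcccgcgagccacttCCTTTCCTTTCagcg
RPS6: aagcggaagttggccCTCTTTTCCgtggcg

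The table held 7 of the 9 genes, and RPL5 and RPS2 had no entry. On GRCh38.p14 these windows lie at chr6:73521018-73521047 for EEF1A1, chr19:3985449-3985478 for EEF2, chr22:39319609-39319638 for RPL3, chr15:66504841-66504870 for RPL4, chr12:120201097-120201126 for RPLP0 and chr9:19380222-19380251 for RPS6, all on the minus strand. That of RPS3 lies at chr11:75399503-75399532 on the plus strand. A C at the annotated start followed by at least 4 bases that are each C or T was found in 5 of the 7, EEF1A1, EEF2, RPLP0, RPS3 and RPS6. The same motif, searched at the start on the gene's strand only, was found in 4.07% of 35116 promoters in the table. The longest run from an annotated start was that of RPS3, 11 bases, followed by 9 in RPLP0 and in RPS6. RPL3 fell short with a run of 4, and the annotated start of RPL4 had none. Only runs that begin at the annotated base were counted. The printed window of RPL4 ends in an unbroken run of C and T that begins further in, at a C. The RefSeq table and the deposited list are on different builds, so whether these starts are the 5′ ends of the spans used below was not tested.

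Argonaute regions were found along all 9 genes, most densely per kb of gene span in both elongation factor genes. The spans include introns, and their share in each gene was not analysed here. The order is therefore not one per kb of mRNA. Over 54246 nt of gene span there were 2.80 regions per kb (exact Poisson 95% interval 2.37 to 3.28). Such intervals cover counting error only, and neighbouring regions are not independent. EEF2 had 4.25 regions per kb (3.04 to 5.79) and EEF1A1 3.98 (2.46 to 6.08). RPS2 followed with 3.24 (1.48 to 6.16), RPLP0 with 3.17 (1.73 to 5.31) and RPL4 with 2.72 (1.52 to 4.48). The lowest were RPS6 with 2.51 (1.20 to 4.62), RPS3 with 2.27 (1.24 to 3.80), RPL3 with 2.06 (1.13 to 3.46) and RPL5 with 1.52 (0.849 to 2.50). The intervals of every pair of neighbours in this order overlapped, whereas that of EEF2, at the top, lay above that of RPL5, at the bottom.

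**Figure D1:**
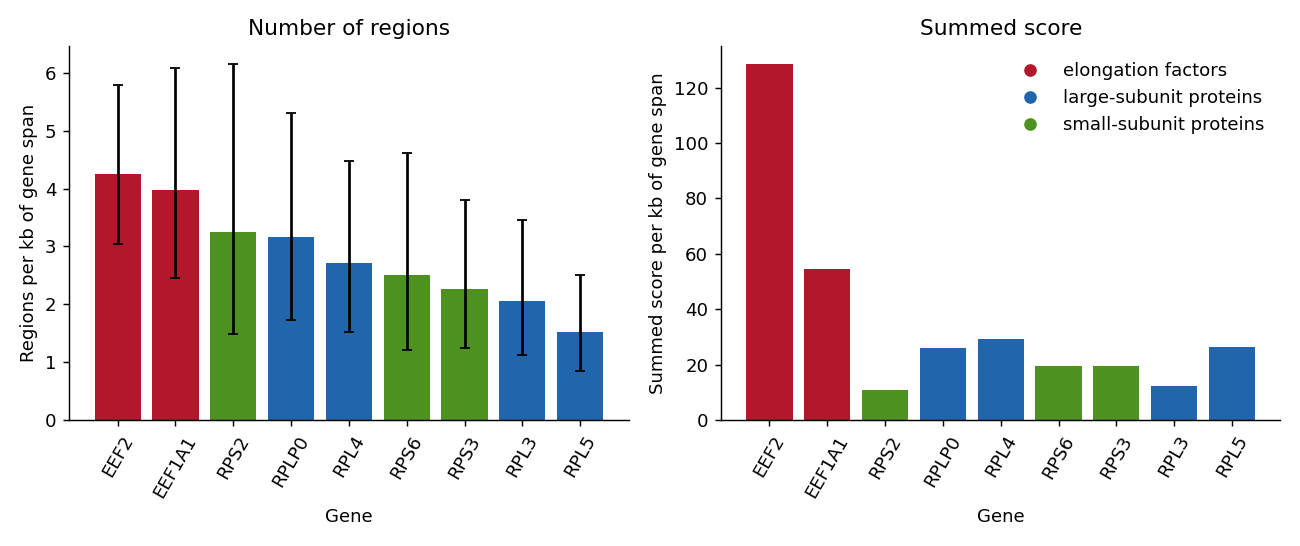
Regions per kb of gene span (left; bars are the value, error bars the exact Poisson 95% interval) and summed score per kb (right; no replicates, so no error bar) for the 9 genes, in the same order and coloured by class. EEF2 stands at 4.25 regions and a summed score of 129 per kb, and RPS2, with the most regions per kb of the ribosomal protein genes, is lowest by score with 10.8.

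The score, the authors' own whole number from 1 to 1000 for each region, separated the genes more than the number of regions did. What it counts is not stated. The summed score was 129 per kb in EEF2 and 54.5 in EEF1A1, and lay between 10.8 (RPS2) and 29.3 (RPL4) in the 7 ribosomal protein genes. EEF2 alone held 40 of the 152 regions and 51.6% of their summed score of 2347. The amount of each mRNA in the cells was not measured here, and the exon share of each span was not analysed. More mRNA, more binding per mRNA and a larger exon share of the span therefore cannot be told apart.

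Regions of the 9 genes had a higher median score, 5 (interquartile range 2 to 13.25), than all regions of the list, 3 (2 to 5). By gene, the median was above 3 in EEF2 (11), EEF1A1 (7), RPS6 (6), RPL4 (5) and RPLP0 (4), equal to it in RPS3, and below it in RPL3 (2.5), RPL5 (2) and RPS2 (2). Scores of 10 or more were held by 47 of the 152 (30.9%, Wilson 95% interval 24.1 to 38.7), against 11.0% of all regions. Without EEF2 they were held by 24 of 112 (21.4%, 14.8 to 29.9). Scores of 100 or more were held by 4 of the 152 (2.63%, 1.03 to 6.57), against 0.264% of all regions. Of these 4, 3 lay in EEF2 and 1 in RPL5, and without EEF2 the share was 0.893% (0.158 to 4.88). Scores of 1 or 2 made up 30.9% of the members' regions and 49.3% of all regions. Regions of 1 gene are not independent and there is no value per library, so none of these differences was tested.

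**Figure D2:**
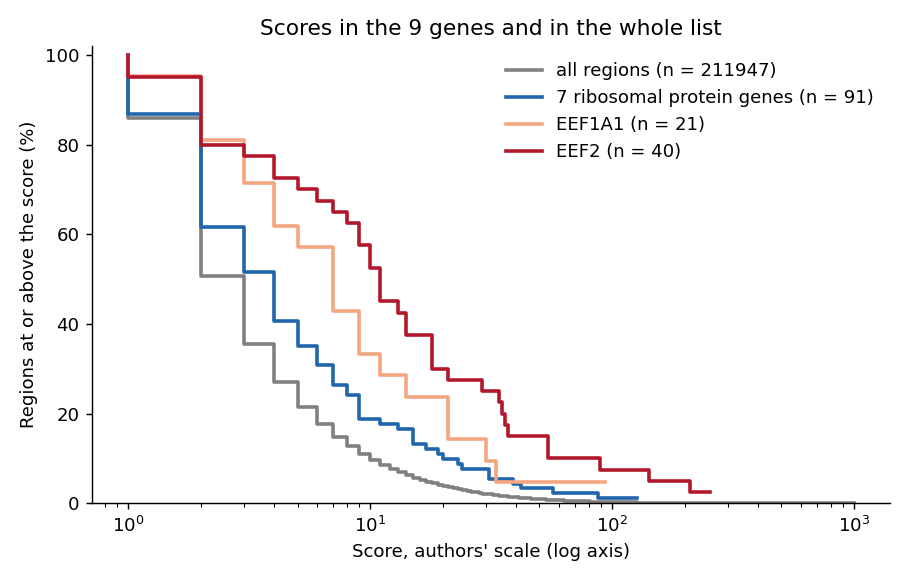
Share of regions (%) at or above each score (log axis) for EEF2, EEF1A1, the 7 ribosomal protein genes together and all regions of the list. At a score of 10 EEF2 has 23 of 40 regions, EEF1A1 7 of 21 and the ribosomal protein genes 17 of 91, against 11.0% of the whole list.

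Per kb of gene span, introns included, the elongation factors had 4.15 regions (3.17 to 5.33) against 2.30 (1.85 to 2.83) for the ribosomal protein genes. The ratio was 1.80, and the summed score per kb of span was 4.76 times as high. EEF2 carried most of the latter, since EEF1A1 had a summed score of 54.5 per kb against 21.4 for the ribosomal protein genes together. Regions of the elongation factors were also wider, with a median of 54 nt against 33 nt. In the elongation factors 30 of 61 regions had scores of 10 or more (49.2%, 37.1 to 61.4), and in the ribosomal protein genes 17 of 91 (18.7%, 12.0 to 27.9). Large-subunit and small-subunit genes lay closer together. The former had 2.18 regions per kb (1.65 to 2.82) and a median score of 3.5, the latter 2.55 (1.76 to 3.58) and a median of 4. With 2 and 7 genes from 1 list there is no test over samples.

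EEF2, the GTPase that moves the ribosome along the mRNA by 1 codon after each peptide bond, had regions in all parts of its span. The span, chr19:3976054-3985467 on the minus strand of hg19, held 40 regions with a median score of 11, which covered 32.1% of it. The highest, chr19:3976190-3976326 with a score of 254, was 137 nt wide and ended 136 nt short of the 3′ end. The next, chr19:3980483-3980706 with a score of 209, was 224 nt wide and lay near the middle of the span. The last of the 3 regions above 100, chr19:3983056-3983291 with a score of 142, was the widest of all the members' regions at 236 nt. Further regions with scores of 89, 54 and 54 lay in the 3′ segment (the last of 3 equal segments of the span, called 5′, middle and 3′), and a region of 96 nt with a score of 34 began 14 nt from the 5′ end. The longest stretch of EEF2 without a region was 1021 nt. The scores of EEF2 were thus high at several places rather than at 1, and its highest region held 21.0% of its summed score.

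EEF1A1, the GTPase that brings aminoacyl-tRNA to the ribosome, had its regions gathered toward the 3′ end. Of the 21 regions in its span, chr6:74225473-74230755 on the minus strand, 20 lay in the 3′ segment, none in the middle segment and 1 in the 5′ segment. The single region there, chr6:74229037-74229122, had a score of 30, below only 93 and 33 in this gene. It was followed by 1807 nt without a region. The highest, chr6:74225450-74225565 with a score of 93, was 116 nt wide and ran 23 nt past the 3′ end of the span. The next had a score of 33 (chr6:74226584-74226679). The median score was 7, and 12 of the 21 regions had a same-strand neighbour within 10 nt, so how many separate sites they stand for was not tested.

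**Figure D3:**
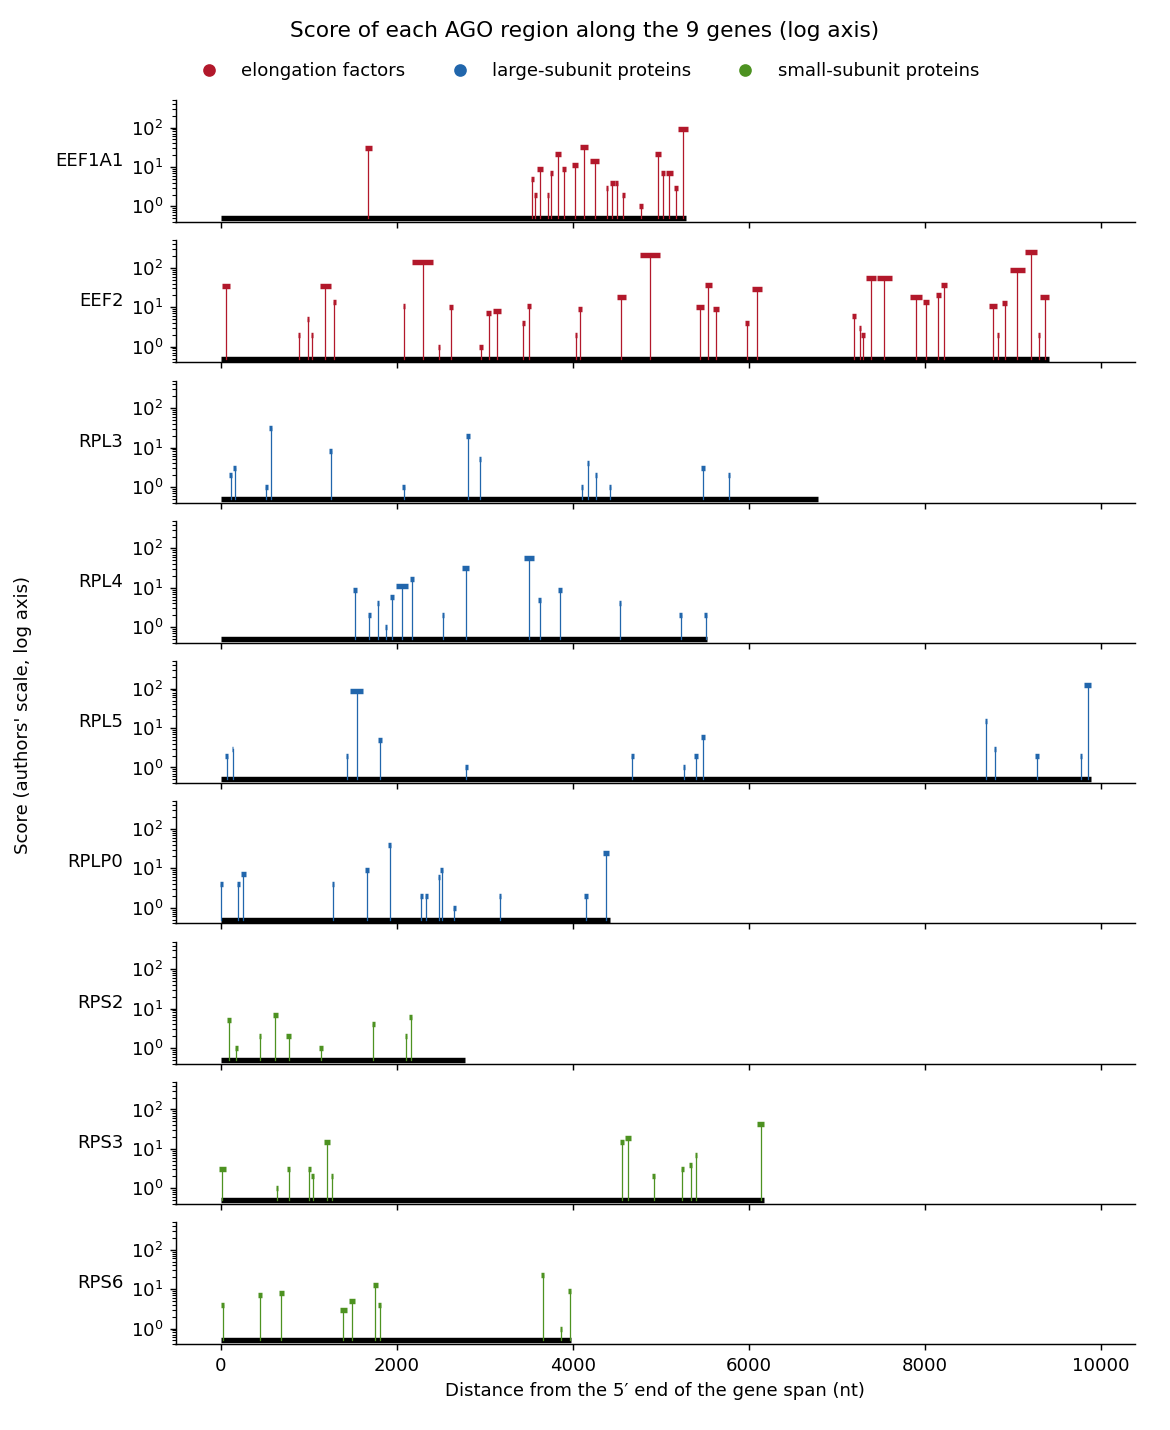
Each region drawn at its distance from the 5′ end of the gene span (x axis, nt; the black bar is the span) and at its score (y axis, log), with the length of the coloured bar giving its width. EEF2 has scores above 100 in each of the 3 segments of its span, EEF1A1 has 20 of 21 regions in the 3′ segment, and the regions of RPL5 and RPS3 fall into clusters, with empty stretches of 3181 and 3256 nt between them.

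Among the large-subunit genes, the highest region held from 33.9% (RPLP0) to 48.6% (RPL5) of the summed score of its gene. RPL5, whose protein carries a small ribosomal RNA into the large subunit and can bind the p53 regulator MDM2, had the highest score among these genes. That region, chr1:93307405-93307483 with a score of 126, was 79 nt wide and reached 2 nt past the 3′ end of the span (chr1:93297594-93307481, plus strand). It held 48.6% of the gene's summed score of 259. A region of 153 nt with a score of 87 (chr1:93299062-93299214) lay in the 5′ segment, and the other 13 regions of RPL5 had scores from 1 to 15. The median score of RPL5 was 2.

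RPL4, which lines the tunnel through which the new protein leaves the ribosome, had 15 regions in chr15:66791653-66797175 on the minus strand. The highest, chr15:66793620-66793732 with a score of 57, was 113 nt wide, and the next, chr15:66794360-66794429, had a score of 31. Of its regions 8 lay in the middle segment, and the first 1506 nt of the span held none. RPLP0, the base of the stalk to which the elongation factors bind, had 14 regions in chr12:120634489-120638910 on the minus strand. Its highest region, chr12:120636974-120637008 with a score of 39, was 35 nt wide, and a region with a score of 24 (chr12:120634502-120634564) lay 13 nt from the 3′ end.

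RPL3, which lies near the centre that forms the peptide bond, had most of its regions in the 5′ and middle segments. In its span, chr22:39708887-39715670 on the minus strand, 6 of 14 regions lay in the 5′ segment, 6 in the middle segment and 2 in the 3′ segment, and the last 997 nt held none. Its highest region, chr22:39715088-39715119 with a score of 31, was 32 nt wide and began 551 nt from the 5′ end. The next, chr22:39712834-39712888, had a score of 20, and the remaining 12 regions had scores from 1 to 8.

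In the small-subunit genes 6 of 33 regions had scores of 10 or more (18.2%), against 11 of 58 in the large-subunit genes (19.0%) and 11.0% of all regions, and the highest score was 42. RPS3, which lies where the mRNA enters the ribosome, had 14 regions in chr11:75110562-75116737 on the plus strand, 7 in the 5′ segment and 7 in the 3′ segment, with a stretch of 3256 nt between them that held none. Its highest region, chr11:75116652-75116735 with a score of 42, was 84 nt wide and ended 2 nt before the 3′ end. RPS6, the ribosomal protein phosphorylated by the S6 kinases downstream of mTOR, had 10 regions in chr9:19376254-19380234 on the minus strand. The median of their scores was 6, and the top region was chr9:19376560-19376595, 36 nt wide with a score of 23. RPS2, which also lies near the mRNA entry, had 9 regions in the shortest span, chr16:2012053-2014827 on the minus strand. It was the 1 gene of the 9 with no score of at least 10: the highest, chr16:2014183-2014232, had a score of 7, and 5 of the 9 regions had a score of 1 or 2.

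Along the spans, regions were found in all parts, with more toward the 3′ end. The 3′ segment held 62 of the 152 regions (40.8%, Wilson 95% interval 33.3 to 48.7), against 47 in the 5′ segment and 43 in the middle segment. This lean rested on EEF1A1, since without that gene the share was 32.1%. By score, 50.6% of the summed score lay in the 3′ segment. The ribosomal protein genes had 34 regions in the 5′ segment, 31 in the middle and 26 in the 3′ segment. RPL3, RPL5, RPLP0 and RPS2 had more regions in the 5′ segment than in the 3′ segment, RPS3 and RPS6 had equal numbers, and RPL4 had 3 and 4. The spans include introns, and their exons and untranslated parts were not analysed here, so these positions are along the gene and not along the mRNA.

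**Figure D4:**
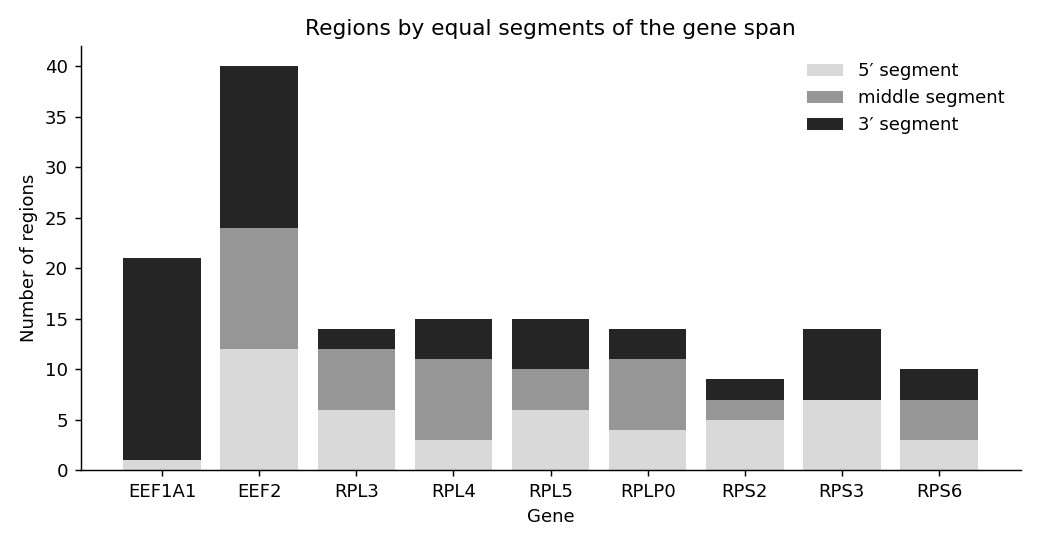
Number of regions (y axis) in the 5′, middle and 3′ segment of the span of each gene, by the midpoint of the region. EEF1A1 has 20 of 21 regions in the 3′ segment, RPS3 has none in the middle segment, and RPL3 has 2 of 14 in the 3′ segment.

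The ends of the spans differed in score. A region lay within 100 nt of the 3′ end in 7 genes, all but RPL3 and RPS2, and within 100 nt of the 5′ end in 7 genes, all but EEF1A1 and RPL4. The 8 regions at the 3′ end had a summed score of 317 and a median of 21, and the 7 at the 5′ end had a summed score of 54 and a median of 4. In EEF1A1, RPL5 and RPS3 the region at the 3′ end was the highest of the gene, with scores of 93, 126 and 42. The other regions at the 3′ end had scores of 24 in RPLP0, 18 in EEF2, 9 in RPS6, 3 in EEF1A1 and 2 in RPL4. At the 5′ end, the scores were 34 in EEF2 and from 2 to 5 in RPL3, RPL5, RPLP0, RPS2, RPS3 and RPS6. EEF2 thus went the other way, with 34 at its 5′ end against 18 at its 3′ end. The windows of 100 nt were chosen after the positions were seen, and the difference was not tested. RPS3, with the longest pyrimidine run from an annotated start, had a score of 3 at its 5′ end, and the region began 19 nt before the span.

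Wide regions carried the high scores. Across the 152 regions width and score rose together (Spearman's rho = 0.709, against 0.453 over all regions), a description only, since wider regions can hold more reads and regions of 1 gene are not independent. The 16 regions of at least 100 nt (10.5% of the members, against 1.81% of all regions) lay in EEF2 (11), EEF1A1 (2), RPL4 (2) and RPL5 (1), and had a median score of 54, against 25 for all regions of that width. From 44 to 99 nt the median was 9.5 for the 46 member regions and 5 for all regions, and from 32 to 43 nt it was 4 for 40 and 3 for all. Below 32 nt, members and the whole list both had a median of 2. Some narrow regions stood above their class, such as those of 35 nt in RPLP0 (score 39), 32 nt in RPL3 (31) and 36 nt in RPS6 (23).

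**Figure D5:**
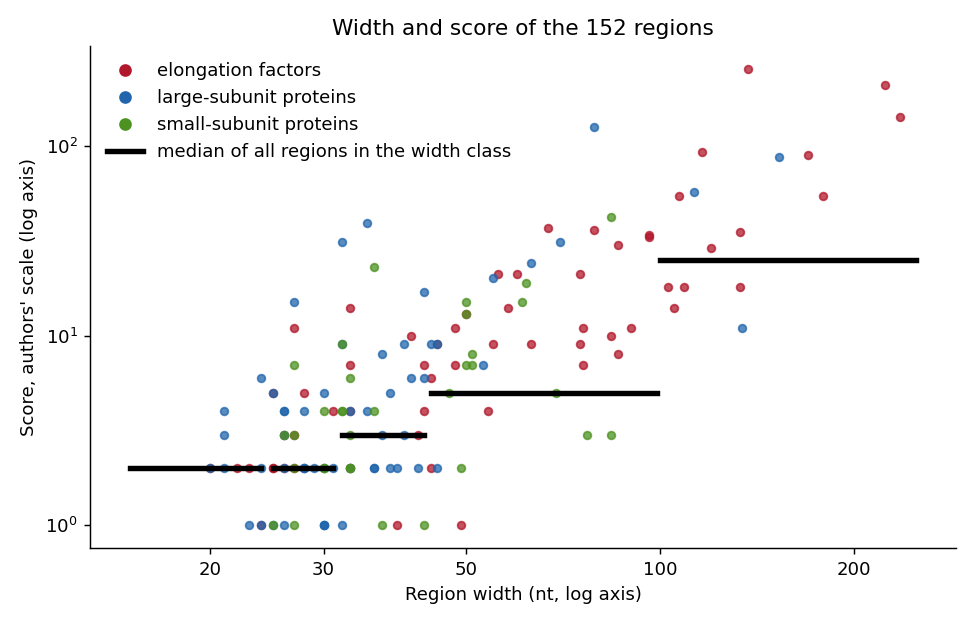
Width (nt) and score of each of the 152 regions, both on log axes, coloured by class of gene, with black lines at the median score of all regions of the list in the same width class. Above 43 nt most points lie over the black lines, at 9.5 against 5 for widths of 44 to 99 nt and 54 against 25 above.

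The 152 regions lay on the gene's strand by the rule of their choice, so the opposite strand of the same spans was counted separately. It held 0 regions, which allows a share of up to 1.97% (counting error only, with regions taken as independent). The same count was not made for other genes of the list, so whether 0 is unusual was not tested. A same-strand neighbour within 100 nt was present for 109 of the 152 regions (71.7%), against 53.4% of all regions. The elongation factors had 55 of 61 (90.2%) and the ribosomal protein genes 54 of 91 (59.3%).

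Small nucleolar RNAs, which guide chemical modification of ribosomal RNA, are often made from introns of such genes. The RefSeq table places 15 of their genes inside 6 of the 9: SNORD37 in EEF2; SNORD43, SNORD83A, SNORD83B and SNORD139 in RPL3; SNORD16 and SNORD18A to SNORD18C in RPL4; SNORD21 and SNORA66 in RPL5; SNORA10 and SNORA64 in RPS2; and SNORD15A and SNORD15B in RPS3. None lies inside EEF1A1, RPLP0 or RPS6. Which of the regions fall on them was not tested, since the table is on another build. These mRNAs also have many processed copies in the genome. The table lists 205 pseudogenes named after them, from none for EEF2 and 7 each for RPL4 and RPS3 to 50 for EEF1A1 and 55 for RPS2. How reads with several matches were placed is, in the sources used here, not given, so the regions are uncertain to that extent. Pseudogenes were counted by name only, so the lack of one for EEF2 does not clear its regions. The part of such copies in the order of the genes was not tested.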

How the data were processed

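The data were 1 list of regions of the library set AGO_good, on hg19 and under a filter whose name includes 0.05, per the file headers. The series has 4 PAR-CLIP libraries, and which of them the set holds is not stated. BWA 0.5.8c is named in the submitters' processing notes; the region caller is, in the sources used here, not given. The score of each region is as deposited by the authors, a whole number from 1 to 1000 whose meaning is not stated, with 7 regions at 1000. The other columns used, as deposited, were start, end and an inner 1-nt position, printed counting from 1.

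A region was a member if it overlapped a gene span on the same strand by at least 1 nt. Regions were placed in 3 equal segments of the span by midpoint. All 9 genes are named, with their highest regions, the widest region and every region with a score of at least 100. The members and lists were chosen with earlier results of these data known. The planned count of other RPL, RPS and EEF genes was not run, since it needs an hg19 annotation. Intervals are at 95%. Functions were tested on simulated regions. Gene names inside the spans and promoter sequences came from RefSeq tables of GRCh38.p14, in which all 9 genes matched by symbol (7 with a promoter). Alternatives changed the score minimum, overlap rule, span, weighting and genes used. Computation used Python 3.11.15 with pandas 2.3.3, numpy 2.4.6 and scipy 1.17.1, and figures matplotlib 3.10.9.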

Additional observations from a re-analysis of the deposited data

How the results depend on the processing

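Counts were compared within 1.5 times, shares and medians within their binomial 95% interval. Of 44 alternatives for the summary values, 4 moved further. The share of regions in the 3′ segment (40.8%) was 50.6% when regions were weighted by score. Leaving out each gene in turn gave 32.1 to 43.5% for that share, with the lowest value without EEF1A1. It gave 21.4 to 32.9% for the share with a score of at least 10 (30.9%), with the lowest value without EEF2, and 4 to 5.5 for the median score (5). Same-strand regions outside the spans (0.589 per kb in 5000 nt on both sides) numbered 1.00 per kb in 1000 nt. Of 27 alternatives for the number of regions in single genes, 4 moved: at scores of at least 3, RPL3 and RPL5 had 7 regions each, RPLP0 9 and RPS2 4. The alternatives for the elongation factors and for the score of at least 10 were chosen after seeing the data. No paired analysis was possible because the list carries no library. The unknown depth of the libraries limits every value.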

Other observations

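Regions around the spans lay after the 3′ end far more often than before the 5′ end. On the gene's strand there were 52 regions in the 5000 nt after the 9 spans (1.16 per kb) and 1 in the 5000 nt before them (0.0222 per kb), against 2.80 per kb within the spans. Of the 52, 30 followed EEF1A1, 10 RPL4, 8 RPS6, 2 RPL5 and 2 RPS3, and EEF2, RPL3, RPLP0 and RPS2 had none. Their scores were mostly low. The 30 after EEF1A1 had scores that summed to 123, the highest 32, for a region of 79 nt at 1930 nt from the end, and in the other genes no score was above 4. In the RefSeq table SNAPC5, on the same strand, is the next gene after RPL4. Whether the regions belong to the mRNAs of the 9 genes or to other transcripts was not tested.

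Joined over gaps of up to 1000 nt, the regions of EEF1A1 formed part of a run of 52 regions, 20 of them within the span, which ranked 95th by number of regions among 76044 runs in the list. The longer of the runs in EEF2 held 24 regions and ranked 983rd by number, but 94th by summed score with 613. The regions of RPLP0 and RPS2 each formed 1 run, of 14 and 9 regions, while those of RPL5 fell into 4. Those of RPL4 also lay in 1 run, of 22 regions, 15 of them within the span.

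The 1-nt position inside each region, on a scale from 0 at the 5′ edge to 1 at the 3′ edge, had a mean of 0.523 over the 152 regions, 0.516 in the elongation factors and 0.528 in the ribosomal protein genes. Counted from the 5′ edge, in the highest region of each gene it lay at base 107 of 137 in EEF2, 91 of 113 in RPL4, 65 of 79 in RPL5, 38 of 50 in RPS2, 68 of 84 in RPS3 and 25 of 36 in RPS6, nearer to the 3′ edge. In EEF1A1 it lay near the middle, at base 61 of 116, and in RPL3 (11 of 32) and RPLP0 (15 of 35) nearer to the 5′ edge. In the next regions of EEF2 by score it also lay nearer to the 5′ edge, at bases 51 of 224 and 83 of 236. What this position marks is not stated in the labels or the file header.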
